A study of Bos taurus with 40 samples.

Results

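Hepatocyte transcription factors are the DNA-binding proteins that set up and maintain the expression programme of the liver parenchymal cell. The set named here held 9 genes, HNF4A, FOXA1, FOXA2, FOXA3, CEBPA, CEBPB, ONECUT1, PROX1 and NR1I3, chosen by name and not by any measured value. Of these, 7 had a row in the count files, out of 13570 gene rows in all, and FOXA2 and CEBPB were not analysed here. All 7 were among the 13148 genes with at least 1 read. RNA was sequenced from liver, abdominal fat, longissimus dorsi muscle (the long muscle of the back) and pituitary gland of 10 Korean cattle, 5 cows and 5 bulls slaughtered at over 22 months of age, with 1 library per animal and tissue, so that each group of 1 sex and 1 tissue held 5 animals. The animals carried no treatment or engineered allele, and the study asked which genes differ between the sexes.

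These factors act as a network. HNF4A is a nuclear receptor that binds promoters of genes for apolipoproteins, clotting factors and metabolic enzymes. FOXA proteins are pioneer factors that bind DNA in closed chromatin and open it to others, and ONECUT1 (HNF6) and PROX1 are homeodomain proteins needed in the development of the liver. CEBPA is a leucine zipper protein that serves both the hepatocyte and the fat cell. NR1I3, known as CAR, is the nuclear receptor through which drugs and bile pigments raise detoxifying enzymes.

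Levels are given as CPM, the reads of a gene relative to all reads on genes of its library, scaled by TMM, a method that corrects library sizes for differences in RNA composition between libraries. CPM are not corrected for gene length, so levels are compared between tissues and animals for 1 gene and not between genes. A gene is called where the p-value adjusted by Benjamini-Hochberg over all 13148 genes was under 0.05. Reads on genes ranged from 5173092 to 19165864 per library (median 10005607), at which 3 reads correspond to a fraction of 1 CPM. The liver library labelled bull 3 held 8694 reads of XIST, the RNA of the inactive X chromosome, within the range of the 5 cows (4978 to 26977), against 2 to 12 in the other bulls, and no read of the Y-linked gene USP9Y. Among the 45 pairs of livers it was closest to the liver of cow 4 (r = 0.993, chi-square per degree of freedom 15.8, against 45.8 for the next pair), a difference still above sampling noise, and whether the 10 livers come from 10 animals was not tested. It went against its sex label, and results on sex in liver are given with and without it. The fat library of bull 5 also stood apart, with 23 reads of USP9Y, and values by sex in fat are likewise given without it. Each tissue carried its own markers: the summed level of 11 hepatocyte genes was 305276 CPM in the median liver and 133.5, 110.3 and 76.9 CPM in the median fat, muscle and pituitary. In these bulk tissues, fewer cells of a type and less RNA per cell cannot be told apart.

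Liver held the highest level of 6 of the 7 factors, and fat held the highest level of the remaining one, CEBPA. HNF4A, FOXA1, FOXA3, ONECUT1, PROX1 and NR1I3 were each called higher in liver than in fat, muscle and pituitary (edgeR quasi-likelihood test), as were 13.6% of all genes. For the same 6, every one of the 10 livers lay above all 30 other libraries, which was the case for 5.78% of all genes. Against single tissues, 6 of 7 were higher in liver than in fat (28.9% of all genes), 7 of 7 higher than in muscle (28.0%) and 7 of 7 higher than in pituitary (29.4%). These 3 comparisons share the liver libraries. The livers carried 85% of the summed tissue means of PROX1 and between 97.1% (HNF4A) and 99.4% (FOXA1) of those of the other 5, against 27.7% for CEBPA.

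**Figure D1:**
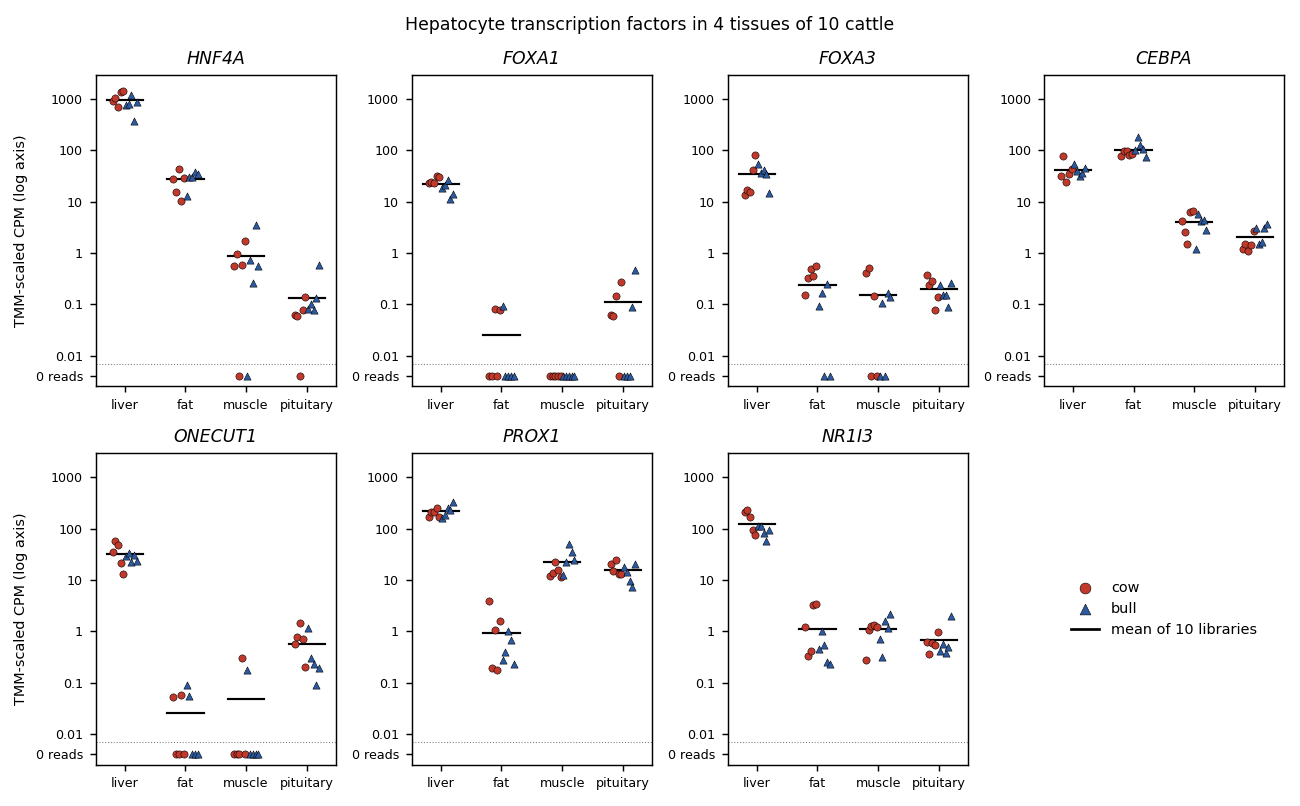
TMM-scaled CPM of 7 transcription factors (1 panel each, log axis) in liver, fat, muscle and pituitary. Each point is 1 library (circles cows, triangles bulls), the bar is the mean of 10 libraries, and libraries with no read sit below the dotted line. All 10 livers stand above every other library except for CEBPA, which is highest in fat, and FOXA1 has no read in muscle.

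HNF4A was measured at 380 CPM in the lowest liver (bull 4), 887 in the median and 1450 in the highest (cow 5), with a mean of 950 ± 325 (SD, n = 10). In fat, all 10 libraries held it, from 10.4 CPM (cow 4) through a median of 29.4 to 43.3 (cow 3). The fewest reads in a fat library were 144 (bull 1), so that these values do not rest on single reads. Muscle libraries ranged from 0 to 3.48 CPM with 65 reads in all, and pituitary libraries from 0 to 0.587 CPM with 21 reads in all, 9 of them in bull 5. The tissues thus stood in the order liver, fat, muscle and pituitary, and each neighbouring pair was called, although muscle and pituitary overlapped and muscle was the higher in 7 of 10 animals (adjusted p = 3.44e-05, edgeR). Liver was 35.1-fold above fat (log2 difference 5.15, SE 0.33, adjusted p = 3.78e-15 by edgeR), and fat was 30.6-fold above muscle (log2 4.91, SE 0.41, adjusted p = 2.77e-13 by edgeR). All 10 animals had more HNF4A in fat than in muscle, and the ranges did not overlap.

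The mean level of HNF4A in fat was 2.85% of its liver mean, with single libraries between 1.09% and 4.56%. ALB, the gene of serum albumin, stood in fat at 0.0307% of its liver mean. Of the 11 hepatocyte markers measured, 10 were at 0.231% of their liver mean or lower in fat, and the exception was APOA1, an apolipoprotein of high-density lipoprotein, at 42.9%. On this scale HNF4A in every fat library was above the highest fat library of each of those 10 markers, of which the nearest was TTR at 0.674%. APOA1 in single fat libraries ran from 4.37% to 201% of its liver mean. The summed hepatocyte markers in fat, APOA1 included, were highest in bull 5 (548 CPM) and lowest in bull 3 (69.7 CPM), whose HNF4A levels in fat were 34.2 and 30.4 CPM. How far the sum follows APOA1 alone was not tested. Over the 10 fat libraries HNF4A had Pearson r = 0.272 with that sum (adjusted permutation p = 0.898). The value was 0.529 without the 2 extreme animals, 0.173 within cows and 0.496 within bulls. Among the other factors, FOXA1, FOXA3, ONECUT1, PROX1 and NR1I3 had fat means between 0.0812% (ONECUT1) and 0.898% (NR1I3) of their liver means. HNF4G, the paralog of HNF4A, was at 153 ± 82.2 CPM in liver, 0.869 ± 0.404 in fat and 4.43 ± 1.78 in pituitary, and was called higher in pituitary than in fat, the opposite order of HNF4A.

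**Figure D2:**
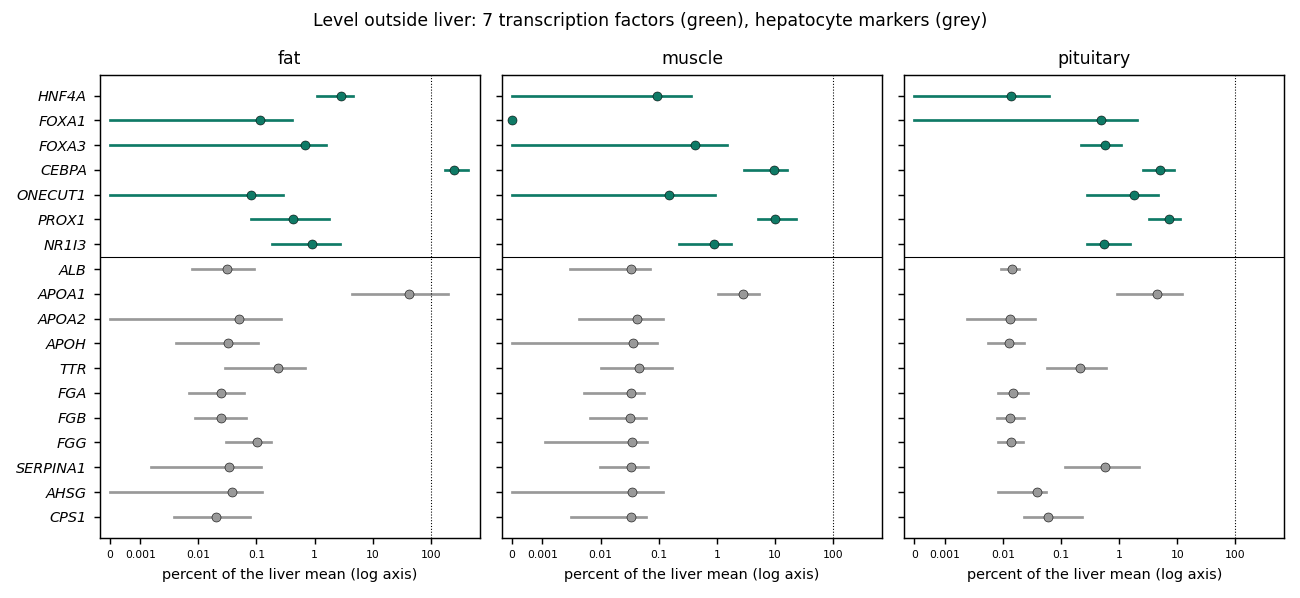
Level of each gene in fat, muscle and pituitary as a percentage of its own liver mean (log axis, with 0 drawn at the left end). Dots are means of 10 libraries and lines run from the lowest to the highest library, with the 7 factors in green and 11 hepatocyte markers in grey. HNF4A in fat (2.85%) stands right of the markers except APOA1 (42.9%), and CEBPA in fat lies right of the dotted line at 100%.

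FOXA1 and FOXA3, the 2 pioneer factors measured, were close to absent outside liver. FOXA1 ranged from 11.5 CPM (bull 4) through a median of 22.7 to 31.6 CPM (cow 4) in liver, with 117 to 281 reads per library. In fat, 3 libraries held 1 read each, a ratio of liver to fat of 1006 (95% interval 344 to 4880, counting error only). No muscle library held a read, which places liver at least 544-fold higher when 3 reads over the 10 libraries are taken as the limit. Pituitary held 17 reads in 6 libraries, 7 of them in bull 5. FOXA3 ranged from 13.3 CPM (cow 1) through a median of 35.1 to 82.8 CPM (cow 5) in liver. The other tissues had means of 0.238 CPM in fat, 0.149 in muscle and 0.201 in pituitary, from 34, 13 and 31 reads. Liver was 147-fold above fat, 234-fold above muscle and 173-fold above pituitary, and none of the 3 comparisons among the other tissues was called for FOXA3.

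ONECUT1, the homeodomain factor also known as HNF6, ranged from 13.3 CPM (cow 5) through a median of 29.7 to 58.0 CPM (cow 2) in liver. It was held by all 10 pituitary libraries, from 0.0881 CPM through a median of 0.435 to 1.45 CPM (cow 3), with 82 reads in all. Fat held 4 reads and muscle 3 reads over their 10 libraries. Pituitary was higher than fat in 10 of 10 animals (log2 fat minus pituitary -3.84, SE 0.83, adjusted p = 1.26e-07 by edgeR) and higher than muscle in 10 of 10 (log2 3.42, SE 0.93, adjusted p = 1.14e-05 by edgeR). Liver remained 55.8-fold above pituitary.

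Of the 6 factors highest in liver, PROX1 had the smallest share of its summed tissue means there (85%). It ranged from 160 CPM (bull 1) through a median of 209 to 333 CPM (bull 5) in liver, from 11.2 (cow 5) through 19.0 to 50.2 CPM (bull 3) in muscle, and from 7.23 (bull 4) through 14.5 to 24.1 CPM (cow 3) in pituitary. In fat it ranged from 0.174 to 3.86 CPM, and cow 1 alone held 75 of the 146 reads. Muscle and pituitary overlapped and were not called apart (log2 pituitary minus muscle -0.50, SE 0.33, adjusted p = 0.198 by edgeR), with muscle higher in 5 of 10 animals. Both were above fat in 10 of 10 animals with no overlap, 23.2-fold for muscle (adjusted p = 8.69e-13 by edgeR) and 16.5-fold for pituitary (adjusted p = 6.53e-12 by edgeR). Liver was 9.94-fold above muscle and 14.0-fold above pituitary. PROX1 also marks lymphatic endothelium, and the summed level of 5 other markers of that cell type had medians of 308 CPM (liver), 163 CPM (fat), 131 CPM (muscle) and 24.6 CPM (pituitary). The sum in liver came from LYVE1 and RELN, which were called higher in liver than in fat, while PDPN, CCL21 and MMRN1 were called lower, and 2 of the 5 were likewise higher and 3 lower in liver than in muscle. PROX1 had Pearson r = -0.527 with that sum over the 10 muscles (adjusted permutation p = 0.470) and r = -0.0271 over the 10 pituitaries (adjusted permutation p = 0.984). The sexes had opposite signs, with 5 animals each. In muscle r was 0.716 within cows and -0.758 within bulls, and in pituitary -0.844 and 0.920. These values within a sex were not tested. The relation of PROX1 to the lymphatic markers in liver and fat was not tested.

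NR1I3, the receptor CAR, ranged from 56.4 CPM (bull 4) through a median of 103 to 235 CPM (cow 2) in liver. It was at 1.12 ± 1.24 CPM in the fat libraries, 1.11 ± 0.58 in those of muscle and 0.685 ± 0.479 in those of pituitary (SD, n = 10 each). Liver was 111-fold above fat, 112-fold above muscle and 182-fold above pituitary, and none of the comparisons among those 3 tissues was called. On the RefSeq assembly ARS-UCD2.0 the span of NR1I3, on chromosome 3, overlaps that of TOMM40L, while no other member overlaps an annotated gene. The strand setting of the counting is not given in the sources used here, so that reads of the 2 genes may not be separable. Mean TOMM40L levels lay between 13.1 CPM (pituitary, SD 2.92) and 30.5 CPM (fat, SD 8.49), with liver at 25.5 CPM, so that its highest mean was in fat.

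CEBPA was the exception to the liver pattern. In fat it ranged from 73.8 CPM (bull 5) through a median of 96.6 to 185 CPM (bull 2), and in liver from 24.0 (cow 3) through 38.2 to 78.9 CPM (cow 2). Fat was above liver in 10 of 10 labelled animals, although the highest liver lay above the lowest fat libraries. The fat labelled bull 3 held 372 reads of USP9Y and 2 of XIST, so that its pairing with the liver of that label is in doubt, and fat was above liver in 9 of 9 animals without it (log2 -1.23 without that liver, adjusted p = 5.32e-05, edgeR). Fat was 2.47-fold above liver (log2 liver minus fat -1.28, SE 0.24, adjusted p = 1.51e-05 by edgeR), the direction called for 35.4% of all genes. With library sizes alone in place of TMM the log2 difference was -2.0, and the same scaling moved the median of all genes in this comparison by -0.69. CEBPA was lower in muscle (1.22 to 6.71 CPM) and pituitary (1.09 to 3.65 CPM), 10.5-fold and 20.1-fold below liver. Fat stood 26-fold above muscle and 49.7-fold above pituitary with no overlap. PPARG, the partner of CEBPA in fat cell differentiation, was at 46.0 ± 15.1 CPM in fat and 0.502 ± 0.467 in liver.

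**Figure D3:**
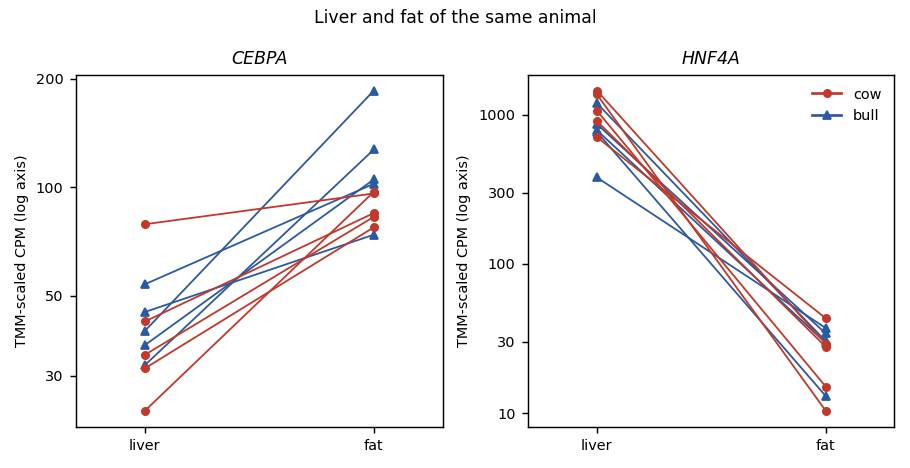
CEBPA and HNF4A in the liver and the fat of each of 10 animals (TMM-scaled CPM, log axis, each line 1 animal, circles cows and triangles bulls). CEBPA is higher in fat and HNF4A in liver in all 10 pairs as labelled. The line of bull 3 joins a liver that went against its sex label to a fat library that did not, and the order is the same in the other 9.

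Among the 3 tissues outside liver, 3 of 7 factors were called between fat and muscle. HNF4A and CEBPA were higher in fat (32.8% of all genes) and PROX1 in muscle (26.8%). All 10 fat libraries lay above all 10 muscle libraries for those 2 (6.81% of all genes), and all 10 muscle libraries above all fat libraries for PROX1 (8.97%). Between fat and pituitary, 5 of 7 were called: HNF4A and CEBPA higher in fat (31.8% of all genes; libraries apart for both, as for 10.5%) and FOXA1, ONECUT1 and PROX1 higher in pituitary (32.8%; libraries apart for PROX1, as for 14.0%). The FOXA1 call rested on 3 reads against 17 and was lost without the 4 libraries of bull 5 (adjusted p = 0.0171 with them and 0.117 without, edgeR), while NR1I3 was then called higher in fat (adjusted p = 0.0125, edgeR). The pituitary of bull 5 also held the highest summed hepatocyte markers of its tissue, 229 CPM against 55.2 to 106 in the other 9. The markers did not all vary alike there. ALB stayed between 0.00938% and 0.0191% of its liver mean in every pituitary, while SERPINA1 reached 2.23% and APOA1 12.3%. Which markers raised the sum in bull 5 was not tested. Between pituitary and muscle, 4 of 7 were called, FOXA1 and ONECUT1 higher in pituitary (32.5% of all genes) and HNF4A and CEBPA higher in muscle (31.5%). The CEBPA call in that comparison (log2 -0.96, SE 0.27, adjusted p = 0.00177 by edgeR) was lost with library sizes alone (log2 0.0028), a scaling that moved the median of all genes by 0.86.

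The livers of single animals differed for each factor, and to different degrees. FOXA3 varied most, with a coefficient of variation of 62.7% and a highest liver 6.22-fold above the lowest. PROX1 varied least, with 24.3% and 2.07-fold. The biological coefficient of variation that edgeR fitted within sexes was 0.539 for FOXA3, above that of 96.8% of the 7217 genes with at least 10 CPM in liver, while the value for PROX1, 0.305, exceeded 37.9% of them. The coefficients of HNF4A (0.380), ONECUT1 (0.372), NR1I3 (0.366), CEBPA (0.341) and FOXA1 (0.307) lay between. Those of HNF4A, ONECUT1, NR1I3 and CEBPA were above the median of 0.322 and exceeded 77.9%, 75.4%, 72.8% and 61.1% of the genes. That of FOXA1 was below the median (39.4%).

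Correlation was examined for the 21 pairs of factors over the 10 livers, on log2(CPM + 1). HNF4A and FOXA1 rose and fell together: bull 4 had the lowest level of both and cows 4 and 5 the highest levels of both. Their Pearson r was 0.868 (permutation p = 9e-04, adjusted p = 0.0193 over 21 pairs) and Spearman's rho 0.830 (permutation p = 0.0045, adjusted p = 0.0943). Without the 2 livers farthest from the median of HNF4A r was 0.676, within cows 0.899 and within bulls 0.831. The call was lost without the liver labelled bull 3 (r = 0.859, exact permutation, adjusted p = 0.0531), and also without cow 4 (adjusted p = 0.0737, exact permutation), cow 5 (0.0798) or bull 4 (r = 0.741, adjusted p = 0.181). ONECUT1 and NR1I3 had r = 0.742 (permutation p = 0.014, adjusted p = 0.129), which was 0.930 within cows and 0.120 within bulls. FOXA3 and ONECUT1 had r = -0.717 (permutation p = 0.0184, adjusted p = 0.129), which was -0.922 within cows and 0.363 within bulls. Without the liver labelled bull 3 the values within the remaining 4 bulls were 0.707 for HNF4A and FOXA1, 0.0436 for ONECUT1 and NR1I3 and 0.783 for FOXA3 and ONECUT1. No pair other than HNF4A and FOXA1 passed the adjustment on all 10 livers.

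**Figure D4:**
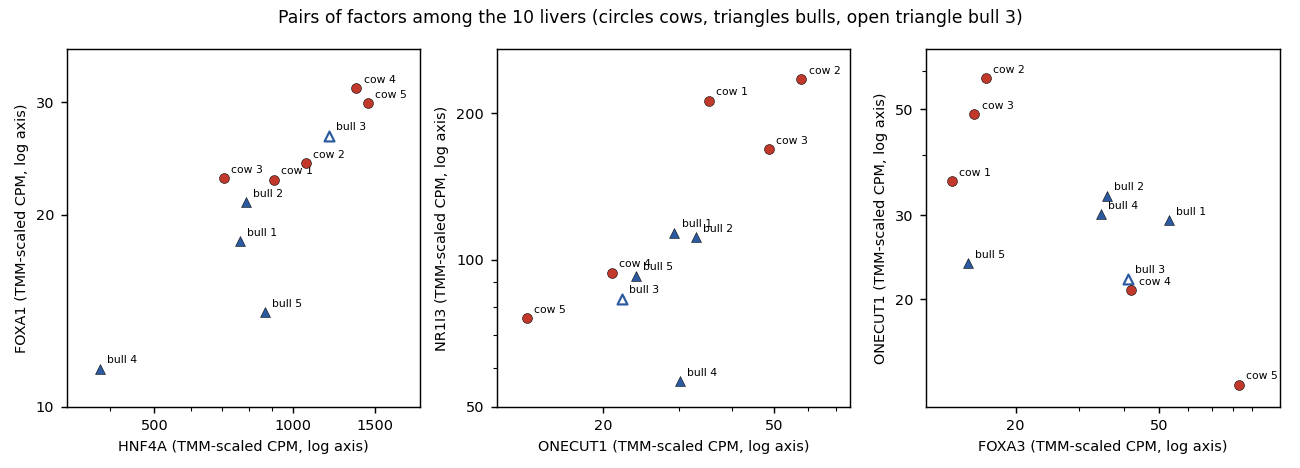
Levels of 3 pairs of factors in the 10 livers (TMM-scaled CPM, log axes, circles cows, triangles bulls, open triangle the liver labelled bull 3). HNF4A and FOXA1 lie along a rising line (r = 0.868), ONECUT1 and NR1I3 likewise in the cows (r = 0.930 within cows, 0.120 within bulls), and FOXA3 and ONECUT1 along a falling one in the cows (r = -0.922).

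The comparison the study was designed for, cows against bulls, called none of the 7 factors in any tissue. By the edgeR likelihood ratio test within each tissue, 0 of 7 were called in liver (0.175% of all genes), fat (0.114%), muscle (0.517%) and pituitary (0.745%). At an unadjusted p under 0.05 the counts were 1 in liver (7.45% of all genes), 2 in fat (6.88%), 1 in muscle (11.0%) and 0 in pituitary (9.27%). A fit of sex over all 40 libraries with tissue as a term called 0 of 7 (1.69% of all genes) and none at the unadjusted level (16.7%). That fit took libraries of the same animal as independent, so its p-values can be too small. These shares are those of the fits made here. The paper's own list from the same model was longer, and its lists within tissues also differed in size. A test of whether the effect of sex differed between tissues called 0 of 7 (0.335%), with PROX1 and NR1I3 under 0.05 unadjusted (8.58%), at adjusted p = 0.183 and 0.435 in edgeR. The edgeR quasi-likelihood test called none of the factors either, with 0.00761%, 0.0228%, 0.0532% and 0.0913% of all genes in liver, fat, muscle and pituitary, 0.586% over the tissues and 0% for the interaction. DESeq2 called none, with 0.188%, 0.245%, 0.813% and 1.18% of the genes it tested in those tissues and 2.13% over them. No factor had cows and bulls apart in liver (0.548% of all genes), fat (1.29%), muscle (1.65%) or pituitary (1.34%).

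NR1I3 in liver had the lowest unadjusted p of the liver set. The 5 cows had 212, 235, 169, 94.2 and 76.0 CPM and the 5 bulls 114, 111, 83.3, 56.4 and 92.9 CPM. Cows 1 to 3 lay above every bull, while cows 4 and 5 lay within the range of the bulls. The log2 difference of bulls minus cows was -0.73 (SE 0.34, unadjusted p = 0.030, adjusted p = 0.582, edgeR likelihood ratio test), and -0.72 (SE 0.37, unadjusted p = 0.056, edgeR) without the liver labelled bull 3. In fat the cows held between 0.325 and 3.46 CPM and the bulls between 0.232 and 0.997 CPM, a log2 difference of -1.79 (SE 0.75, adjusted p = 0.614, edgeR) on 169 reads in all, and FOXA3 in fat had -1.72 (SE 0.80, adjusted p = 0.616, edgeR) on 34 reads. Without the fat of bull 5 the differences were -1.61 for NR1I3 (unadjusted p = 0.040, adjusted p = 0.605, edgeR) and -1.42 for FOXA3 (unadjusted p = 0.059, adjusted p = 0.632, edgeR).

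FOXA1 in liver was at 22.7, 24.1, 22.8, 31.6 and 29.9 CPM in the cows and at 18.2, 20.9, 26.6, 11.5 and 14.1 CPM in the bulls. The bull value of 26.6 CPM belongs to the library labelled bull 3. With it the sexes overlapped (log2 -0.50, SE 0.29, adjusted p = 0.792, edgeR). Without it every cow lay above every bull, as the sexes did in either direction for 1.33% of all genes, and the log2 difference was -0.69 (SE 0.29, unadjusted p = 0.020, adjusted p = 0.556, edgeR), so that FOXA1 was still not called. Without that library 0 of 7 factors were called in liver by the likelihood ratio test (0.464% of all genes) and 0 by the quasi-likelihood test (0.0837%). HNF4A in liver was at 907, 1066, 708, 1370 and 1450 CPM in the cows and 767, 788, 1194, 380 and 866 CPM in the bulls, a log2 difference of -0.44 (SE 0.35, adjusted p = 0.884, edgeR), and of -0.64 (SE 0.35, adjusted p = 0.837, edgeR) without bull 3.

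**Figure D5:**
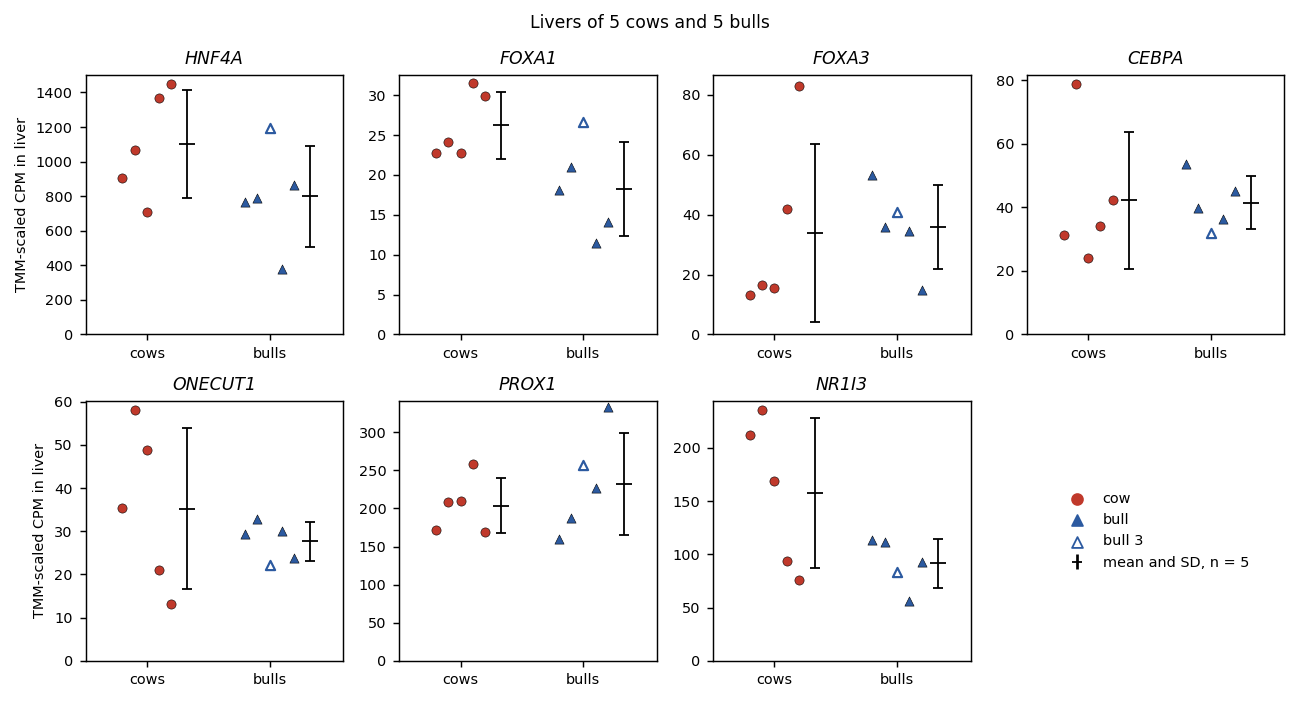
TMM-scaled CPM of the 7 factors in the livers of 5 cows and 5 bulls (linear axis from 0), with the mean and SD beside each group. The open triangle is the liver labelled bull 3. FOXA1 separates the sexes except for that library (26.6 CPM), and NR1I3 is above every bull in 3 of 5 cows.

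PROX1 in muscle was at 12.1, 13.5, 22.8, 15.5 and 11.2 CPM in the cows and 12.3, 22.5, 50.2, 34.8 and 24.3 CPM in the bulls. Bulls 3, 4 and 5 lay above every cow, and bulls 1 and 2 within the range of the cows. The log2 difference of bulls minus cows was 0.95 (SE 0.37, unadjusted p = 0.012, adjusted p = 0.271, edgeR), against 0.21 (SE 0.28) in liver, -1.40 (SE 0.81) in fat and -0.31 (SE 0.30) in pituitary. The summed level of 6 markers of slow muscle fibres was 15690 CPM in the median cow (8954 to 62512) and 61669 CPM in the median bull (24256 to 83956), and was highest in the muscle of bull 3, as was PROX1. MYL2 and TNNC1 of that list were called higher in the muscle of bulls (log2 1.86 and 1.81, adjusted p = 0.00345 and 0.0224, edgeR). The paper listed TNNC1 by sex over the tissues from RNA-seq, but its qRT-PCR of TNNC1 in cattle muscle gave no significant difference by sex. Over the 10 muscles PROX1 and the sum of slow fibre markers had Pearson r = 0.718 (adjusted permutation p = 0.216). CEBPA in fat was at 77.4, 96.1, 97.1, 82.7 and 84.8 CPM in the cows and 102, 185, 127, 105 and 73.8 CPM in the bulls, the lowest being bull 5. Without bull 5 the sexes did not overlap in fat, as for 2.34% of all genes, and CEBPA was not called by sex with or without it (log2 0.42, SE 0.32, adjusted p = 0.846 with it, and log2 0.56, adjusted p = 0.658 without it, edgeR).

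Genes known to lie in the same network were read from lists chosen by name. Of 30 other hepatocyte regulators 22 had a row, and 13 of the 22 were called higher in liver than in fat and 3 lower (median log2 2.35, against -0.13 over all genes), 14 higher and 3 lower than in muscle (median 1.54 against -0.11), and 19 higher and 0 lower than in pituitary (median 2.55 against -0.12). Of all genes, 28.9%, 28.0% and 29.4% were called higher in liver in those comparisons. CREB3L3, a regulator of fasting and lipid genes, was at 276 ± 206 CPM in liver and 0.265 ± 0.180 in fat, and NR1H4, the bile acid receptor, at 126 ± 46.4 and 0.0415 ± 0.0553. NR1H3, a sterol receptor, was at 122 ± 23.0 CPM in liver and 141 ± 111 in fat and was not called between them (adjusted p = 0.450, edgeR), and ATF5, a stress-response factor, was higher in fat (213 ± 114 against 139 ± 34.5 CPM, adjusted p = 0.0369, edgeR). In the family list of FOXA, C/EBP, ONECUT, PROX and NR1 genes, which includes the 7 factors, 15 of 19 had a row, with 9 higher (28.9% of all genes) and 2 lower (35.4%) in liver than in fat. The second gene lower in liver, beside CEBPA, was CEBPE, at 1.16 ± 2.14 CPM in fat and 0.0700 ± 0.0836 in liver.

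Of 11 genes known as HNF4A targets, 10 had a row and all 10 were called higher in liver than in each other tissue (median log2 differences between 9.66 and 11.1), as were 13.6% of all genes. APOA1, APOA2, TTR and SERPINA1 of this list are also among the hepatocyte markers, so that a high level in liver was to be foreseen. Between fat and muscle, where HNF4A differed 30.6-fold, 4 of the 10 were higher in fat and none lower (median log2 0.51, against 0.13 over all genes), where 32.8% of all genes were higher in fat. All 7 genes known as FOXA targets were likewise higher in liver than in each other tissue, with medians of 8.78, 10.9 and 10.7. ALB, TTR and CPS1 of these are hepatocyte markers too. Of 11 C/EBP targets measured, 6 were higher in liver than in fat (28.9% of all genes) and 3 lower (35.4%), the 3 being genes of the fat cell, PPARG, LEP and FABP4. Of 13 measured genes known as CAR targets, 9 were higher in liver than in fat (28.9% of all genes) and 1 lower (35.4%). Those higher included CYP2C19 (1044 ± 607 CPM in liver, 0.406 ± 0.332 in fat), CYP3A5 (525 ± 176 and 0.220 ± 0.194) and SULT2A1 (630 ± 282 and 0.274 ± 0.355). CYP2B6, a classical CAR target, was at 193 ± 185 CPM in liver and 314 ± 257 in fat and was not called between them (adjusted p = 0.323, edgeR). Reads of such P450 and UGT genes can be split among near-identical copies, and their levels are uncertain to that extent. Of 10 measured partners of adipogenesis, 5 were higher in fat than in liver and 2 lower, and of 15 stress and early genes, 6 and 3, where 35.4% of all genes were higher in fat and 28.9% lower.

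By sex, no member of the HNF4A, C/EBP or CAR target lists was called in any tissue or over the tissues. IGFBP1, a FOXA target that encodes an IGF-binding protein, was called higher in cows in fat (log2 -6.24, adjusted p = 0.00349), over the tissues (log2 -2.45, adjusted p = 0.00822) and for the interaction (adjusted p = 0.0144), all by the edgeR likelihood ratio test. In fat the cows held 7.05, 1.10, 16.1, 0.232 and 0.394 CPM, all above the 5 bulls (0 to 0.111 CPM). Without the fat of bull 5 the calls held (adjusted p = 0.0142 in fat, 0.0192 over the tissues and 0.0207 for the interaction, edgeR). By the edgeR quasi-likelihood test those in fat and for the interaction were lost (adjusted p = 0.667 and 0.367) and that over the tissues held (0.0473). DBP, a clock-driven factor in the list of regulators, was called higher in cows over the tissues (log2 -1.31, adjusted p = 0.00861, edgeR). It was not called by sex within any single tissue (in fat adjusted p = 0.745, edgeR likelihood ratio test). The paper had already listed IGFBP1 by sex in fat. Its qRT-PCR in cattle also gave a significant difference for IGFBP1 in fat, and for DBP over the tissues. The fit over the tissues, used for both DBP and IGFBP1, took libraries of the same animal as independent, so its p-values can be too small. Without the liver labelled bull 3, JUNB, an early-response factor of the stress list, was called higher in the livers of bulls (log2 1.53, adjusted p = 0.00136, edgeR likelihood ratio test), but not by the quasi-likelihood test (adjusted p = 0.0711).

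The genes whose patterns were most like each factor are given as a description, by Pearson r of log2(CPM + 1) over the 40 libraries among 10946 genes with a mean of at least 1 CPM. All points of a tissue share its composition, so that liver genes resemble each other. The closest were GLYAT, ADTRP and FGL1 for HNF4A (r = 0.985, 0.985 and 0.982), AKR1D1, GJB1 and ARG1 for FOXA1 (0.995, 0.994 and 0.994), and SERPINA3, SERPINA7 and NR1H4 for FOXA3 (0.988, 0.985 and 0.985). ONECUT1 was followed by LRRC19, STAB2 and DAO (0.989, 0.987 and 0.986), and NR1I3 had GLYATL3 and BBOX1 among its closest genes (0.984 each). The number of genes at 0.9 or more was 174 for HNF4A and 371 to 410 for FOXA1, FOXA3, ONECUT1 and NR1I3. PROX1 had 14, among them RNF128 (0.937) and MTSS1 (0.921), and CEBPA had 22, led by IDH1 (0.950), CTSA (0.944) and ORMDL3 (0.944).

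Over the 10 livers alone, by Spearman's rho among 9930 genes, the closest were SRCRB4D, THEM6 and AKR1D1 for HNF4A (0.927, 0.927 and 0.891), NKD1, AKR1D1 and GCLC for FOXA1 (0.952, 0.903 and 0.891), and ATP6V1F, C13H20orf24 and TM4SF4 for FOXA3 (0.976, 0.939 and 0.939). AKR1D1, a bile acid synthesis enzyme, thus stood in both the HNF4A and the FOXA1 list. MMRN1, CERS1 and ARHGEF25 led for ONECUT1 (0.988, 0.976 and 0.952), JUP, ADAMTS14 and VPS33B for NR1I3 (0.976, 0.964 and 0.964), CCNT1, LARP4B and PLCE1 for PROX1 (0.927 each), and C7H19orf25, ZNF691 and DVL1 for CEBPA (0.903, 0.891 and 0.879). ONECUT1 had 93 genes at 0.9 or more over the livers, against 1 for CEBPA and 2 each for HNF4A and FOXA1.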

How the data were processed

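Poly-A RNA libraries of 40 samples were sequenced as paired ends on an Illumina HiSeq. The authors trimmed reads with Trimmomatic, aligned them to UCSC bosTau7 with TopHat2 and Bowtie2, and counted uniquely mapped reads per gene with HTSeq; the deposited values are raw read counts. The counting mode and strand setting are not given in the sources used here. Rows without a gene name (0.114% to 2.69% of gene reads) were left out. Counts were scaled by TMM and fitted in edgeR 4.0.16 (R 4.3.3) over 13148 genes: tissue contrasts by the quasi-likelihood test with tissue and sex on 40 libraries, sex by the likelihood ratio test of the study (M1 within a tissue, M2 with tissue as a term). Correlations used 100000 permutations, or all of them with 9 livers. DESeq2 1.42.0, RLE factors, library sizes alone, filterByExpr, an animal block and omitted animals or libraries were alternatives. Same-animal libraries deviated together in 38 of 60 tissue pairs at a correlation over 0.1, against 145 of 540 pairs from different animals (medians 0.208 and -0.022). The ranges overlapped, from -0.450 to 0.560 for the same animal and from -0.527 to 0.537 for different animals. The block comes from the number in the sample titles, which 4 libraries share, 1 of each tissue. The edgeR tests of tissue, sex and interaction were run on simulated counts, drawn independently for each library with no animal effect. The correlations, the DESeq2 fits and the animal block were not checked in this way. No pair of libraries of a tissue agreed within sampling noise; the closest pair is given above. Names of overlapping genes came from RefSeq (ARS-UCD2.0). Every member was named, with the 3 most similar genes for each (2 such genes are not reported here), up to 4 listed genes with the highest liver level and any with a call by sex; the examples LYVE1, RELN, PDPN, CCL21, MMRN1, MYL2, TNNC1, JUNB, PPARG, CEBPE, LEP, FABP4 and CYP2B6 were chosen after their values were seen. The members and lists were chosen with earlier results of these data known.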

Additional observations from a re-analysis of the deposited data

Results flagged for a closer look

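In 31 groups of 5 animals with a mean of at least 1 CPM, 3 single libraries stood further from the rest of their group than Dixon's 95% limit, where chance gives about 1.55. HNF4A in the muscle of bull 4 was at 3.48 CPM, against 0 to 0.735 in the other 4 bulls. That group reached the limit of 1 CPM (mean 1.01 CPM) only through this library, so its flag cannot be set against the number from chance. CEBPA in the pituitary of cow 5 was at 2.73 CPM, against 1.09 to 1.47 in the other cows. NR1I3 in the muscle of cow 1 was at 0.276 CPM, against 1.04 to 1.33 in the other cows, and rested on 2 reads. No effect of sex on a factor differed between tissues past the adjusted threshold.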

How the results depend on the processing

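The counts of called factors in the 12 comparisons stayed within 1.5 times of the reported ones under every alternative run. Of 1307 refitted log2 differences 1304 kept their call. The exceptions were CEBPA between pituitary and muscle with library sizes alone (0.002838, reversed), and FOXA1 and NR1I3 between fat and pituitary without bull 5. The animal block (replicate block) changed no call: it called 7 factors between liver and fat, 7 against muscle and 7 against pituitary, 3 between fat and muscle, 5 between fat and pituitary, 4 between pituitary and muscle and 0 for the interaction. It was not fitted for the tests of sex within or over the tissues. Pairs of factors called as correlated among livers numbered 0 without the liver labelled bull 3, 2 with library sizes alone (adding ONECUT1 with NR1I3) and between 0 and 2 when 1 animal was left out (0 without cow 4, cow 5 or bull 3, 2 without bull 5). The quasi-likelihood test without that liver, and the interaction without the fat of bull 5, which called 0 factors, were added after seeing the data. The filterByExpr filter removed 5 factors from each of the sex tests in fat, muscle and pituitary. Where a factor held few reads in a tissue, such as 34 for FOXA3 in fat, counting error limits what could be detected between the sexes.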

Other observations

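HNF4A and CEBPA in fat and PROX1 in muscle and pituitary were set against the summed levels of 15 marker lists over 10 animals, 60 relations chosen after the values were seen (log2(CPM + 1), adjusted over all 60). PROX1 in muscle had Pearson r = 0.718 with the slow fibre markers (permutation p = 0.020, adjusted p = 0.216; rho = 0.733, permutation p adjusted 0.211), which was 0.647 without the 2 extreme animals, 0.159 within cows and 0.938 within bulls. PROX1 in pituitary had r = -0.736 with the pituitary hormone and lineage markers (permutation p adjusted 0.216; rho = -0.891, adjusted 0.0346), which was -0.595 without the 2 extreme animals, -0.795 within cows and -0.725 within bulls. By Pearson's r 2 relations passed the adjustment, PROX1 in muscle with S100B, GFAP and AQP4 (r = 0.865, adjusted permutation p = 0.0483) and PROX1 in pituitary with epithelial markers (r = -0.859, adjusted permutation p = 0.0483). Without the 2 extreme animals r was 0.955 and -0.602, within cows 0.597 and -0.879, and within bulls 0.950 and -0.852. The first of these lists was drawn up for the pituitary and the second for fat. By rho 4 passed, those 2, the pituitary hormone markers and the T and B cell markers in pituitary (rho = 0.855, adjusted permutation p = 0.0441). For the T and B cell markers Pearson r was 0.773 (adjusted permutation p = 0.172). No relation of HNF4A or CEBPA in fat passed.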
